A study of Mus musculus with 12 samples.

Results

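The p38 and JNK kinase cascade was followed through 10 genes in mouse hippocampus: the MAP kinase kinase kinase *Map3k4*, the MAP kinase kinases *Map2k3*, *Map2k6*, *Map2k4* and *Map2k7*, the JNK genes *Mapk8*, *Mapk9* and *Mapk10*, and the p38 genes *Mapk11* and *Mapk14*. They were chosen by symbol. The symbols matched 11 of the 37991 Ensembl gene IDs in the count files, because *Map3k4* has an additional ID on the opposite strand. The 10 IDs with the most reads all passed the filter on low counts, and the additional *Map3k4* ID, with 0 to 7 reads per library, did not.

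Poly(A) RNA was sequenced from the hippocampi of 12 male C57BL/6N mice, 6 *Gadd45a*-WT and 6 *Gadd45a*-KO siblings from heterozygous parents. According to the labels they were 6 to 7 months old and were killed 1 h after the passive avoidance (PA) test, a memory task in which a mouse learns to avoid a compartment where it received a foot shock. All 12 mice went through the test, so these libraries do not compare trained with untrained animals. In the knockout line the first exons of *Gadd45a* were replaced by a neomycin resistance cassette in every cell, and exon 4 remained.

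In this cascade a MAP kinase kinase kinase phosphorylates a MAP kinase kinase, which in turn phosphorylates p38 or JNK. *Map3k4* encodes MEKK4, the kinase that Gadd45 proteins bind and activate. *Map2k3* and *Map2k6* encode activators of p38, *Map2k7* encodes an activator of JNK, and *Map2k4* encodes a kinase that acts mainly on JNK and can also act on p38. Both branches are switched on by stress and cytokines, and in the hippocampus they are known for roles in synaptic plasticity. The switch is a change in phosphorylation, which poly(A) RNA counts do not measure.

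The activating phosphates are placed on a threonine and a tyrosine of the activation loop, and the codons around them are shown because this motif tells JNK from p38 kinases and because it shows how alike the paralogs are. Each line gives 30 bases of the coding strand, 5′ to 3′, read from the transcripts and equal to the NCBIM37 genome, each within 1 exon. The capitals mark the threonine codon, the codon between, and the tyrosine codon.
*Mapk8* (chr14:34206177-34206206, minus strand, exon 6 of 12): tttatgatgACGCCTTATgtggtgactcgc
*Mapk9* (chr11:49686323-49686352, plus strand, exon 6 of 12): tttatgatgACTCCCTATgtggtaactcga
*Mapk10* (chr5:103418688-103418717, minus strand, exon 7 of 13): ttcatgatgACTCCGTATgtggtgacgcga
*Mapk11* (chr15:88976284-88976313, minus strand, exon 8 of 13): gaggagatgACCGGATATgtggccacacgg
*Mapk14* (chr17:28865335-28865364, plus strand, exon 7 of 12): gatgagatgACAGGCTACgtggctaccagg
The codon between was CCT, CCC and CCG in the JNK genes and GGA and GGC in the p38 genes. *Mapk8* and *Mapk9* shared 26 of these 30 bases, as did *Mapk9* and *Mapk10*, while *Mapk8* and *Mapk10* shared 25. *Mapk11* and *Mapk14* shared 23, and a JNK gene shared between 15 and 17 bases with a p38 gene. Over whole coding transcripts, no run of 51 bases, the length of the reads, was common to any pair of the 10 genes.

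Between 44594261 and 55540601 reads per library fell on genes. Levels are given as CPM, the reads on a gene relative to the reads of its library after TMM scaling in edgeR, and 16399 genes that passed its filter were compared with its quasi-likelihood test, with Benjamini-Hochberg adjustment over all of them at a false discovery rate (FDR) of 1%. The count of the targeted gene *Gadd45a* ran opposite to the labels: the 6 libraries labelled *Gadd45a*-WT had 2.58 ± 0.481 CPM (SD), and the 6 labelled *Gadd45a*-KO had 21.4 ± 1.07 CPM (SD). The ranges were 2.19 to 3.43 CPM and 20.5 to 23.1 CPM. Gene counts do not separate the removed exons from exon 4 or from the cassette, so libraries are called WT-labelled and KO-labelled here and every direction rests on the labels. *Gadd45b* and *Gadd45g*, its relatives that also act on MEKK4, had log2 fold changes of -0.13 (adjusted p = 0.487) and -0.07 (adjusted p = 0.868) in the same edgeR test. Reads on no annotated exon of the counted strand made up 12.64% to 13.91% of a WT-labelled library and 11.47% to 12.57% of a KO-labelled one, without overlap. Such reads can also lie in introns or beyond annotated ends of genes. Their part in the differences between the labels was not tested. All 8 markers of hippocampal excitatory neurons were detected in every library. Their summed level was 1150 to 1260 CPM in the WT-labelled libraries and 936 to 1174 CPM in the KO-labelled ones. The summed level of 8 thalamus markers was 313 to 397 CPM and 329 to 844 CPM respectively, with KO-labelled replicates 3 (844 CPM) and 2 (602 CPM) above all others. The summed level of 6 oligodendrocyte markers was 2317 to 3679 CPM and 3005 to 7311 CPM. No marker of these 3 lists was at 0, and in bulk tissue fewer cells of a type and less RNA per cell cannot be told apart.

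None of the 10 cascade genes differed between the labels at 1% FDR in edgeR's quasi-likelihood test, and none did in DESeq2. In all genes tested, 2.62% had lower and 0.0244% had higher counts under the KO label by the same rule. At an unadjusted p under 0.05, 2 of the 10 genes, *Mapk8* and *Map2k6*, were on the lower side and 0 on the higher, against 9.35% and 4.34% of all genes. Log2 fold changes were below 0 for 5 genes and above 0 for 5, with a median of -0.01, beside 0.00 over all tested genes, of which 7905 were below 0. The libraries of the labels did not separate for any of the 10 genes, whereas every KO-labelled library was below every WT-labelled library in 3.12% of all genes and above in 0.183%. The 95% intervals of the differences held 0 for 8 genes and lay between -25.1% (*Map2k6*) and 11.6% (*Mapk11*) over all 10.

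**Figure D1:**
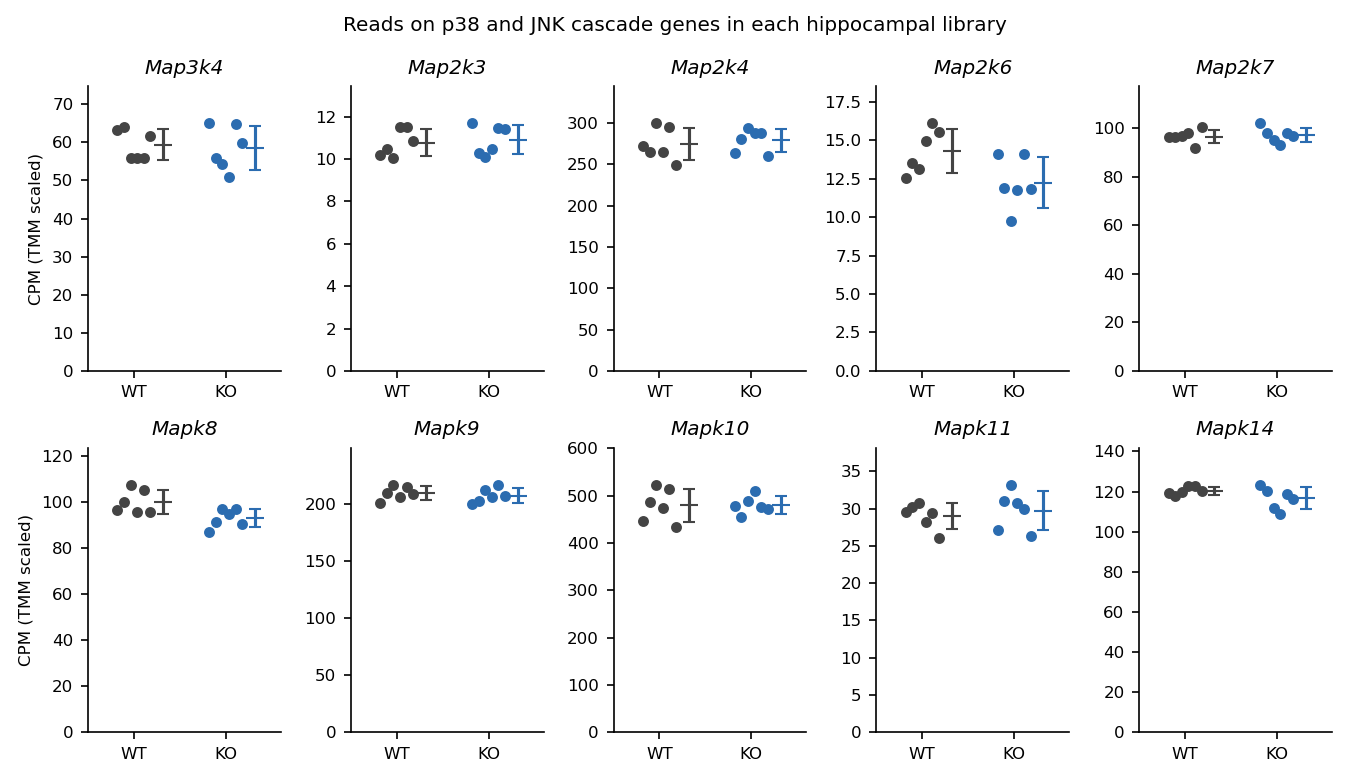
Reads on each of the 10 cascade genes in CPM (y axis from 0, a different scale in each panel) in the 6 WT-labelled libraries (grey, replicates 1 to 6 from left to right) and the 6 KO-labelled ones (blue), with mean and SD beside the points. The points of the labels overlap in every panel, and in *Map2k6* and *Mapk8* 4 of the 6 blue points lie below all grey points.

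At the top of the cascade, *Map3k4* (ENSMUSG00000014426, chr17:12420489-12511614, minus strand) ranged from 55.8 to 64.1 CPM with a median of 58.8 in the WT-labelled libraries. In the KO-labelled ones it ranged from 50.8 to 65.0 CPM with a median of 57.9. Of the KO-labelled libraries, 2 lay below and 2 above all WT-labelled libraries, and the rest lay among them. The means were 59.4 ± 3.99 and 58.5 ± 5.75 CPM (SD, n = 6 each), the log2 fold change was -0.02 ± 0.06 (SE, edgeR adjusted p = 0.932) and its 95% interval ran from -10.4% to 8.05%. The second ID of *Map3k4* (ENSMUSG00000079716) lies on the plus strand and shares 2985 exonic bases with the first. The kit kept the strand and the authors counted reads by it, and with at most 7 reads the second ID took almost none of those counted there.

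Of the p38 activators, *Map2k6* (ENSMUSG00000020623, chr11:110260436-110386836, plus strand) was the gene with the largest difference of the 10. WT-labelled replicates 1 to 6 had 12.5, 13.5, 13.1, 14.9, 16.1 and 15.5 CPM, and KO-labelled replicates 1 to 6 had 14.1, 11.9, 9.76, 11.8, 14.1 and 11.8 CPM. KO-labelled replicates 2, 3, 4 and 6 were thus below every WT-labelled library, while replicates 1 and 5 lay among them. The log2 fold change was -0.22 ± 0.09 (SE, 95% interval -0.42 to -0.03, edgeR adjusted p = 0.261), so that the difference did not pass the test. The lowest library, KO-labelled replicate 3, was also the one with the most reads on thalamus and oligodendrocyte markers, and without it and replicate 2 the log2 fold change was -0.14 (edgeR adjusted p = 0.785).

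*Map2k3* (ENSMUSG00000018932, chr11:60745535-60766313, plus strand), the other p38 activator, ranged from 10.1 to 11.5 CPM with a median of 10.7 in the WT-labelled libraries and from 10.1 to 11.7 CPM with a median of 10.9 in the KO-labelled ones. The ranges were nearly the same, and the log2 fold change was 0.02 ± 0.06 (SE, edgeR adjusted p = 0.936). Both p38 activators had few reads on annotated exons, 463 to 847 per library, compared with the other genes of the cascade.

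Of the JNK activators, *Map2k4* (ENSMUSG00000033352, chr11:65501745-65601799, minus strand) ranged from 249 to 300 CPM with a median of 269 in the WT-labelled libraries. In the KO-labelled ones it ranged from 260 to 294 CPM with a median of 284, within the range of the other label. Its log2 fold change was 0.02 ± 0.05 (SE, edgeR adjusted p = 0.909). *Map2k7* (ENSMUSG00000002948, chr8:4238740-4251423, plus strand) ranged from 91.6 to 100.3 CPM with a median of 96.5 and from 93.0 to 102 CPM with a median of 97.3. Its log2 fold change was 0.01 ± 0.03 (SE, edgeR adjusted p = 0.945), with an interval of -3.86% to 5.41%. The gene *Gm14378* shares 1159 exonic bases with *Map2k7* on the same strand and had 171 to 259 reads. Of the 51-base runs in *Map2k7* coding transcripts, 14.9% also occur in *Gm14378*. Reads on shared bases can be assigned ambiguously and so left out, and how many the count of *Map2k7* lacks was not measured.

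Among the JNK genes, *Mapk8* (JNK1, ENSMUSG00000021936, chr14:34191084-34260344, minus strand) had 96.8, 99.9, 108, 95.8, 105 and 95.6 CPM in WT-labelled replicates 1 to 6. KO-labelled replicates 1 to 6 had 87.2, 91.3, 96.9, 95.1, 97.0 and 90.7 CPM. Replicates 1, 2, 4 and 6 of the latter lay below every WT-labelled library, and replicates 3 and 5 lay among them. The means were 100.1 ± 5.11 and 93.0 ± 3.93 CPM (SD, n = 6 each), and the log2 fold change was -0.11 ± 0.04 (SE, 95% interval -0.19 to -0.02, edgeR adjusted p = 0.212), which did not pass the test. An offset was also used that removes, in each library, a smooth trend with exon length of the deviations from gene means. With it the value was -0.04 (edgeR adjusted p = 0.763). Without the 2 libraries highest in thalamus markers it was -0.11 (edgeR adjusted p = 0.392).

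*Mapk9* (JNK2, ENSMUSG00000020366, chr11:49660253-49699923, plus strand) ranged from 201 to 217 CPM with a median of 209 in the WT-labelled libraries and from 200.4 to 217 CPM with a median of 206 in the KO-labelled ones. The log2 fold change was -0.02 ± 0.03 (SE, edgeR adjusted p = 0.905), and its interval, -5.46% to 3.56%, was the narrowest of the JNK genes. *Mapk10* (JNK3, ENSMUSG00000046709, chr5:103336967-103640353, minus strand), the JNK gene known for its expression in the nervous system, ranged from 434 to 523 CPM with a median of 481 and from 455 to 510 CPM with a median of 478. All KO-labelled libraries lay within the range of the other label, and the log2 fold change was 0.00 ± 0.05 (SE, edgeR adjusted p = 0.999).

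Of the p38 genes, *Mapk14* (p38α, ENSMUSG00000053436, chr17:28828287-28885349, plus strand) ranged from 118 to 123 CPM with a median of 119.8 in the WT-labelled libraries and from 109 to 123 CPM with a median of 118 in the KO-labelled ones. It had the smallest spread of the 10 genes in the first label, with a coefficient of variation of 1.65%, against 4.74% in the second, where 3 libraries lay below and 1 above all WT-labelled libraries. The log2 fold change was -0.05 ± 0.03 (SE, edgeR adjusted p = 0.630). *Mapk11* (p38β, ENSMUSG00000053137, chr15:88972916-88980036, minus strand) ranged from 26.0 to 30.7 CPM with a median of 29.5 and from 26.3 to 33.2 CPM with a median of 30.3. The highest 3 libraries were all KO-labelled, and among them were both libraries highest in thalamus markers. The log2 fold change was 0.03 ± 0.06 (SE, edgeR adjusted p = 0.880) and -0.02 (edgeR adjusted p = 1.00) without those 2 libraries.

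Levels of different genes were compared as CPM per kilobase of annotated exon, since longer transcripts give more reads. Over the 12 libraries the cascade spanned an 18.1-fold range. *Map2k4* was highest with a mean of 59.3 CPM per kb, followed by *Mapk10* with 43.0, *Mapk9* with 30.7, *Mapk14* with 27.2 and *Map2k7* with 18.1. The ranges of these 5 genes did not overlap with their neighbours in that order. The level of *Map2k7* may be too low, since reads on the bases it shares with *Gm14378* can be left out. *Mapk11* (12.04 CPM per kb), *Map3k4* (10.9 CPM per kb) and *Mapk8* (10.4 CPM per kb) followed with overlapping ranges, and *Map2k6* (3.85 CPM per kb) and *Map2k3* (3.27 CPM per kb) were lowest and overlapped each other. The paper reports an extended, unannotated 3′ untranslated region (3′UTR) for *Map2k6*. Reads there are not in its count, so its level covers annotated exons only. By CPM alone, *Mapk10* stood above 98.4% of all tested genes and *Map2k3* above 41.5%. With the longest annotated transcript in place of all exons, *Mapk8* moved from place 8 to place 6, before *Mapk11* and *Map3k4*, and the other genes kept their order. The levels themselves depend on the length used, and those of the WT-labelled libraries moved from 43.0 to 66.6 CPM per kb for *Mapk10*, from 18.002 to 27.4 for *Map2k7*, from 10.8 to 17.4 for *Mapk8*, from 4.15 to 6.84 for *Map2k6* and from 3.25 to 4.90 for *Map2k3*, while *Mapk11* and *Map3k4* kept theirs.

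Within each family the share of each gene in the summed level per kb was compared between the labels, as a description without a test. How often such shares separate by label in other groups of genes was not examined. *Mapk10* made up 50.7 ± 1.21% (SD, n = 6) of the JNK level in the WT-labelled libraries and 51.4 ± 1.05% (SD, n = 6) in the KO-labelled ones, and *Mapk9* 36.5 ± 1.14% and 36.6 ± 0.844%. The share of *Mapk8* was 12.77 ± 0.215% and 12.01 ± 0.308%, from 12.43% to 13.04% in the first label and from 11.51% to 12.29% in the second. These ranges did not overlap, unlike the CPM values of *Mapk8* itself. The *Mapk8* share also did not overlap when lengths were taken from the longest transcript, with 13.15% to 13.80% against 12.18% to 13.02%.

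*Mapk14* made up 69.9 ± 1.41% of the summed level of *Mapk11* and *Mapk14* in the WT-labelled libraries and 68.7 ± 2.54% in the KO-labelled ones (SD, n = 6 each), with overlapping ranges. *Map2k6* made up 56.01 ± 1.39% of the summed level of the p38 activators and 51.76 ± 2.30% respectively. These shares leave out reads on the unannotated 3′UTR of *Map2k6*. The lowest WT-labelled library, with 54.23%, was just above the highest KO-labelled one, with 54.21%, and *Map2k3*, which holds the rest, separates in the same way. *Map2k4* made up 76.5 ± 1.71% and 76.7 ± 1.32% of the summed level of the JNK activators, with overlapping ranges. This split is uncertain because *Map2k7* shares 1159 exonic bases with *Gm14378*.

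**Figure D2:**
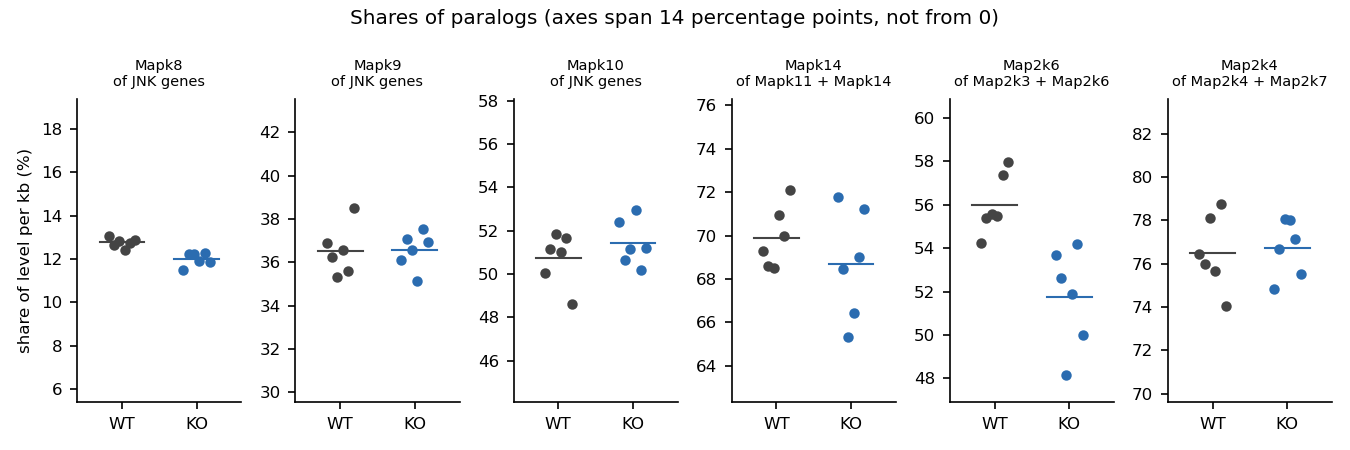
Share of the 3 JNK genes and of 1 gene of each other pair in the summed level per kb of its family (y axis in percent, each panel spanning 14 percentage points and not starting at 0) in the WT-labelled (grey) and KO-labelled (blue) libraries, with lines at the means. The points of the labels separate for *Mapk8* (means 12.77% and 12.01%) and, barely, for *Map2k6* (means 56.01% and 51.76%), whose partner *Map2k3* holds the rest, and overlap in the other panels. How often shares of other genes separate in this way was not examined.

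The other genes of the pathway were taken from lists of upstream kinases, scaffolds, phosphatases and substrates. Of 57 such genes 56 were tested, the p38 gene *Mapk13* having too few reads. At 1% FDR 2 were lower in the KO-labelled libraries and 0 were higher, beside the 2.62% and 0.0244% of all genes, and DESeq2 gave 3 and 0. At an unadjusted p under 0.05, 5 of the 56 were on the lower side and 0 on the higher, beside 9.35% and 4.34% of all genes, so that the count on the lower side was near that of all genes. The median log2 fold change was -0.02, with 38 genes below 0, beside 0.00 and 7905 of the 16399 genes tested in all.

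Both genes that were lower belong to the 9 scaffolds and adaptors. *Spag9* encodes JIP4, a scaffold that binds JNK, p38 and the motor kinesin. It ranged from 348 to 406 CPM with a median of 383 in the WT-labelled libraries and from 294 to 341 CPM with a median of 313 in the KO-labelled ones. The labels did not overlap, and the log2 fold change was -0.27 ± 0.05 (SE, edgeR adjusted p = 0.00394). With the offset for exon length it was -0.18 (edgeR adjusted p = 0.00700). *Tab3* encodes an adaptor of the kinase TAK1. It ranged from 30.2 to 34.1 CPM with a median of 32.3 and from 26.0 to 29.1 CPM with a median of 28.4, again without overlap, and the log2 fold change was -0.19 ± 0.04 (SE, edgeR adjusted p = 0.00780). With the offset it was -0.16 (edgeR adjusted p = 0.0193) and did not pass. Of the 56 pathway genes only these 2 had every KO-labelled library below every WT-labelled one, beside 3.12% of all genes. That count was near the share of all genes.

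Both calls lay near the threshold. When each library was left out in turn, *Spag9* passed it in 4 of 12 fits with an edgeR adjusted p of at most 0.0181 over all 12, and *Tab3* in 1 of 12 with at most 0.0359. *Spag9* kept its call without WT-labelled replicate 1 or 4 or KO-labelled replicate 3 or 5 and lost it without any of the other libraries, and *Tab3* kept it without WT-labelled replicate 4. Over all 21 alternatives *Spag9* passed in 12 and *Tab3* in 4. Among these is the main fit judged at 5% FDR, which any gene called at 1% must pass. Without the 2 libraries highest in thalamus markers, the log2 fold changes were -0.29 for *Spag9* (adjusted p = 0.0135) and -0.20 for *Tab3* (edgeR adjusted p = 0.0365), and neither passed. The other 7 scaffolds and adaptors, among them the JNK-interacting proteins *Mapk8ip1*, *Mapk8ip2* and *Mapk8ip3* and the TAK1 adaptor *Tab2*, did not pass, and *Tab1* had the largest value of them at 0.05 (edgeR adjusted p = 0.653). The list's median was 0.01.

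**Figure D3:**
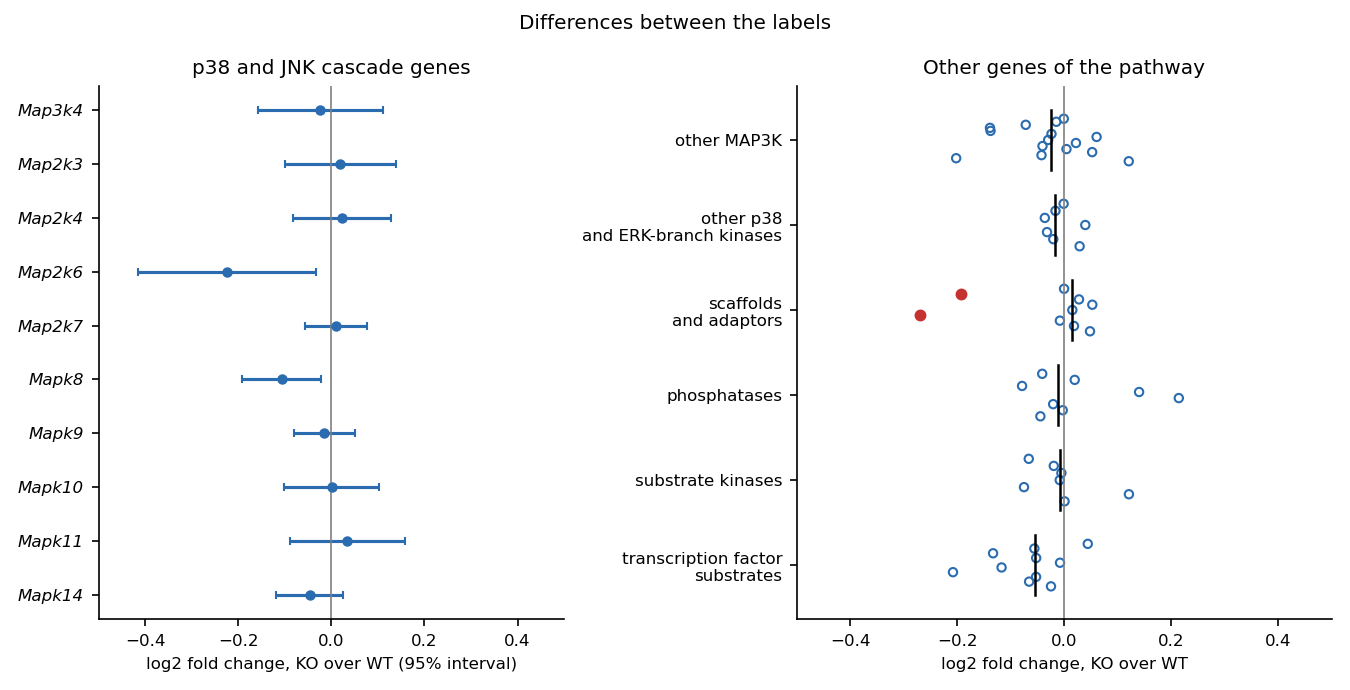
Log2 fold changes of the KO-labelled libraries over the WT-labelled ones (x axis), on the left for the 10 cascade genes with 95% intervals and on the right for the 56 other pathway genes by list, with a black line at each list's median. The intervals of *Map2k6* and *Mapk8* lie below 0 although neither passed 1% FDR, and the 2 filled red points among the scaffolds and adaptors are *Spag9* (-0.27) and *Tab3* (-0.19), which did.

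None of the 15 other kinases at the level of MEKK4 passed 1% FDR. Their median was -0.02 with 10 values below 0, beside 7905 of all 16399 tested genes. The largest difference was that of *Map3k2*, which encodes MEKK2. It had 40.8 ± 2.36 and 35.4 ± 1.56 CPM (SD, n = 6 each), a log2 fold change of -0.20 ± 0.04 (SE, edgeR adjusted p = 0.0122), and 5 of 6 KO-labelled libraries below all WT-labelled ones. It passed 1% FDR in DESeq2 (adjusted p = 0.00101) and not with the length offset, where the log2 fold change was -0.11 (edgeR adjusted p = 0.167). None of the 7 further MAP kinases and their activators that were tested passed, and *Map2k5* had a log2 fold change of 0.04 (edgeR adjusted p = 0.656).

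None of the 8 phosphatases passed. *Dusp10*, whose product inactivates JNK and p38, had the largest value with a log2 fold change of 0.21 (edgeR adjusted p = 0.479) at 3.64 ± 0.524 and 4.22 ± 0.730 CPM (SD, n = 6 each). None of the 7 kinases downstream of p38 passed, and *Mapkapk3* had the largest value at 0.12 (edgeR adjusted p = 0.762). None of the 10 transcription factors that p38 and JNK phosphorylate passed either. Their median was -0.05 with 9 values below 0, beside 7905 of all 16399 tested genes. *Atf7*, a factor of the ATF2 group, had the largest value with -0.21 (edgeR adjusted p = 0.383). Its 95% interval ran from -0.42 to 0.00457.

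Variation among mice of the same label was also compared between the cascade genes. For each gene the mean of its label was subtracted from the log2 CPM of each library, and the 45 pairs were compared over the 12 libraries, as a description. Pearson's r ranged from -0.685 to 0.894 with a median of -0.0414. The highest value was that of *Map2k4* and *Mapk8*, the JNK activator and JNK1 (r = 0.894, Spearman's rho = 0.881, and r = 0.859 without the 2 libraries farthest from the median of *Map2k4*). The p38 activators *Map2k3* and *Map2k6* had r = 0.844 (rho = 0.818, and 0.833 without the 2 farthest libraries), and *Mapk8* and *Mapk9* had r = 0.841 (rho = 0.783, and 0.781 without them). The lowest value was that of *Map2k3* and *Mapk11* (r = -0.685, rho = -0.797, and -0.627 without the 2 farthest), and the JNK activators *Map2k4* and *Map2k7* also had a negative value (r = -0.665, rho = -0.476, and -0.708 without them). The points share the library, its scaling and its makeup of cell types, whose part in these values was not tested.

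**Figure D4:**
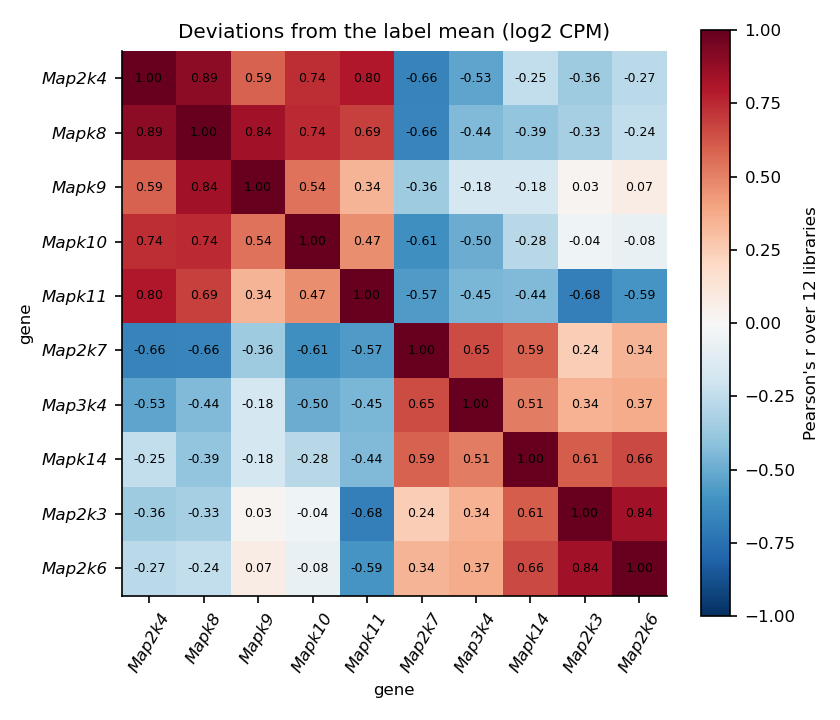
Pearson's r over 12 libraries between the 10 cascade genes (both axes), after the label mean was subtracted from log2 CPM, in red for positive and blue for negative values. *Map2k4* with the JNK genes and *Mapk11* forms 1 block of positive values, and *Map2k7*, *Map3k4*, *Mapk14*, *Map2k3* and *Map2k6* form the other, with mostly negative values between the blocks.

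By the same measure over 12 libraries, the genes most like *Map3k4* were *Gfra2* (r = 0.947), *Bhlhe22* (r = 0.944) and *C130039O16Rik* (r = 0.936). Those most like *Map2k6* were *Prdm10* (r = 0.902), *Tmem30c* (r = 0.901) and *Celf1* (r = 0.900), and those most like *Mapk10* were *Thsd4* (r = 0.950), *Exoc6b* (r = 0.934) and *Ap2b1* (r = 0.933). They are the highest values from a search of the 16399 tested genes. The part of shared scaling and cell type makeup in them was not tested.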

How the data were processed

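The authors prepared stranded poly(A) libraries, aligned reads of 51 bases to NCBIM37/mm9 with TopHat 1.4.1, and deposited whole counts for each Ensembl gene from HTSeq 0.5.4p3, neither normalized nor pooled. Reads on no annotated exon of the counted strand (11.5% to 13.9%) were left out of totals. So were reads assigned ambiguously (0.55% to 0.61%) and those without a unique alignment (11.5% to 12.9%). Reads beyond annotated exons are not in these counts.

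Gene names and exon lengths came from a GENCODE annotation of the same build, which matched 37205 of 37991 IDs. Where a symbol had several IDs, the one with most reads was used. In edgeR 4.0.16 (R 4.3.3), counts were filtered with filterByExpr, scaled by TMM and tested with the quasi-likelihood test without covariates on all 12 libraries, with Benjamini-Hochberg adjustment at 1% FDR. The standard error (SE) was obtained as |log2 fold change| divided by √F. Log2 CPM used a prior count of 2. One read was 0.0180 to 0.0223 CPM. Groups and replicate numbers come from the labels, and no source links equal numbers. Libraries of 1 label differed by more than counting error (a chi-square of 9.03 to 40.8 for each degree of freedom in 30 pairs).

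Members and gene lists were chosen with earlier results of these data known. Named are all 10 cascade genes, of each other list the genes at 1% FDR and otherwise the one with the largest difference, the *Gadd45* genes, and for 3 cascade genes the 3 genes most like them. Alternatives were DESeq2 1.42.0, RLE factors, other filters, 5% FDR, a replicate block, and leaving out each library. Another was an offset for the length of all annotated exons of a gene, with and without the block. It was a spline with 5 degrees of freedom, fitted in each library to deviations of log2 CPM from the gene's mean. Leaving out the 2 libraries highest in thalamus markers was added after seeing the data. On simulated data for this comparison, with 200 genes shifted by a log2 value of 1, edgeR recovered 183 with 3 others among 16309 and DESeq2 187 with 12 others among 16399. This shift is larger than any difference of the cascade genes, and recovery of smaller shifts was not simulated. Coverage within transcripts was not used here.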

Additional observations from a re-analysis of the deposited data

How the results depend on the processing

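None of the 10 cascade genes passed under any alternative, and the values of *Map2k3*, *Map2k4*, *Map2k6*, *Map2k7*, *Mapk8* and *Mapk14* kept their sign in all 21. Of 210 values 15 changed sign, all for genes near 0, and the cause was not tested: *Mapk9* was 0.0190 with the length offset and 0.0191 with offset and replicate block. Without the 2 libraries highest in thalamus markers *Map3k4* was 0.0168 and *Mapk11* -0.0246. With each library left out in turn, *Map3k4* ranged from -0.0483 to 0.0214, *Mapk9* from -0.0190 to 0.00275 and *Mapk10* from -0.0194 to 0.0348.

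The number of genes lower in the libraries labelled *Gadd45a*-KO, 430, was 660 with DESeq2, 726 at 5% FDR, 272 with the length offset, 199 without the 2 libraries highest in thalamus markers, and 239 to 467 with each library left out. The 4 higher genes were 18, 20 and 9 under the first 3 of these, 10 with offset and block, and 3 to 4 with each library left out. The 2 lower genes among the other pathway genes were 1 without a filter, 1 with at least 10 reads in every library, 1 with the offset, 1 with offset and block, 0 without the 2 libraries highest in thalamus markers, and 0 to 3 with each library left out (0 in 8 of 12).

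The replicate numbers were not taken to pair the libraries, since no source links equal numbers and 5 of 6 same-numbered pairs, not all, had a correlation of deviations over 0.1 (from -0.0761 to 0.262). The mean was 0.140 for equal and -0.0279 for different numbers, and 4 of 12 libraries correlated best with their own number. With that number as a block, 509 lower and 5 higher genes were called, of which 0 belong to the cascade and 2 to the other pathway genes (*Spag9*, and *Map3k2* with an edgeR adjusted p of 0.00739, while *Tab3* had 0.0119). *Map2k6* was -0.23 (adjusted p = 0.143) and *Mapk8* -0.11 (adjusted p = 0.0801 from edgeR).

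With 463 to 847 reads, the p38 activators had SEs of 0.06 (*Map2k3*) and 0.09 (*Map2k6*) on the log2 scale, against 0.03 for *Mapk9*, the smallest of the 10 genes. *Map3k4*, with 2471 to 3316 reads, also had an SE of 0.06, and the part of depth in these SEs was not tested.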

Other observations

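No library stood apart from the others of its label in any of the 10 cascade genes by Dixon's 95% critical value. All 20 sets of 6 libraries were examined, of which about 1 would be expected to pass it by chance.

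All 6 oligodendrocyte markers, genes of myelin, had an unadjusted p under 0.05 on the higher side in edgeR's quasi-likelihood test, beside 4.34% of all genes, with a median log2 fold change of 0.45, and 0 of them passed 1% FDR. By the same rule and beside the same share of all genes, 5 of 8 thalamus markers had an unadjusted p under 0.05 on the higher side and 0 passed 1% FDR, with a median of 0.89. Of 8 markers of hippocampal excitatory neurons, 1 was lower at 1% FDR, beside 2.62% of all genes, and 7 did not pass. The list's median was -0.16, with 6 values below 0 and 2 above. The lower marker was *Zbtb20* (log2 fold change -0.43 ± 0.06, SE), a transcription factor, named after its value was seen. Its mean was 381 CPM in the WT-labelled and 283 CPM in the KO-labelled libraries. *Zbtb20* is part of the summed level of these markers. The part of these markers in the values of the cascade genes was not tested.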
